A study of Mus musculus with 12 samples.

Results

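The genes for 10 growth factor receptor tyrosine kinases were followed in fibroblasts with and without focal adhesion kinase: Pdgfra, Pdgfrb, Fgfr1, Fgfr2, Fgfr3, Egfr, Erbb2, Erbb3, Met and Kit. These genes were chosen by name and not by a filter on their signals, though earlier results of these data were known. Their probes were found through the RefSeq transcript that the array assigns to each probe. All 10 had probes, 26 in total, among the 17016 named genes of the array. Of these, 8 entered the test of 12438 genes. Erbb3 and Kit did not, because none of their probes was well above background on all 3 arrays of any group.

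Receptor tyrosine kinases are membrane proteins that bind a secreted or membrane-anchored ligand, pair up, and phosphorylate each other on tyrosines, to which adaptors of the Ras-MAPK, PI3K and STAT pathways bind. Platelet-derived growth factor (PDGF) receptors are typical of mesenchymal cells, and fibroblasts are classical PDGF responders. Of the fibroblast growth factor (FGF) receptors, Fgfr1 is the usual form in mesenchyme, whereas Fgfr2 and Fgfr3 are common in epithelia, where splicing of Fgfr2 sets which ligands it binds. The ERBB family binds ligands related to epidermal growth factor (EGF), Met binds hepatocyte growth factor and Kit binds stem cell factor. Focal adhesion kinase (FAK, gene Ptk2) is a cytoplasmic kinase at integrin adhesions that also takes part in signalling by such receptors.

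Messenger RNA of 12 cultures of mouse embryonic fibroblasts was measured on 1-colour arrays. The knockout line (KO) lacks FAK, and the rescue line is 1 clone, DA2, of FAK-null cells into which FAK was put back. Both were grown with 10% serum. Hygromycin B and non-essential amino acids were given to the rescue line alone, so the medium is a further difference between the lines. Seeding per 10 cm dish was sparse (410000 cells) or dense (8200000 cells) and RNA was taken after 24 h, giving the groups rescue_sparse, rescue_dense, KO_sparse and KO_dense with 3 cultures each. The cultures of a group came from 3 experimental days, numbered 1 to 3, and cells from up to 3 dishes were pooled before seeding.

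Per array, 23152 to 26183 of 41174 probes were well above background, and correlations across genes between arrays of a group were 0.982 to 0.992. Of both Ptk2 probes, the brighter differed by -0.11 ± 0.18 (log2, SE) between the lines in sparse cells and the dimmer by -2.08 ± 0.31; where they lie relative to the deleted part is not known, so neither checks the labels. Scanner values are used throughout. In the deposited value table, 8 of 12 columns matched the scanner file of the same sample best (r 0.89 to 0.95, values centred per probe), but the 4 columns of day 3 matched the array of the other line at the same density (r 0.91 to 0.94, against -0.69 to -0.53 with their own). The scanner files of day 3 resembled the other arrays of their labelled groups. The table as labelled therefore enters only as an alternative.

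Signals below are on the log2 scale, relative to the 75th percentile of the same array, so that 0 means as bright as that percentile. They rank a receptor between groups and not 1 receptor against another. A difference was called where limma's Benjamini-Hochberg adjusted p over all genes was below 0.05. In bulk RNA, fewer cells that express a gene and less RNA per cell cannot be told apart. The labels do not say whether the cultures of different days were separate stocks, so p-values measure the spread between these cultures.

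The RefSeq windows of 250 bases before a gene start (assembly GRCm38.p6) were looked up for the receptors, and 7 of 10 had one. The windows of 3 are shown because they belong to receptors with different behaviour here: Pdgfra, which moved with density in the rescue line, Fgfr2, which differed between the lines, and Met, whose brightest probe passed in none of the comparisons. Capitals mark CG dinucleotides, and each is written 5′ to 3′ on the strand of the gene.
Pdgfra, chr5:75152001-75152250, + strand: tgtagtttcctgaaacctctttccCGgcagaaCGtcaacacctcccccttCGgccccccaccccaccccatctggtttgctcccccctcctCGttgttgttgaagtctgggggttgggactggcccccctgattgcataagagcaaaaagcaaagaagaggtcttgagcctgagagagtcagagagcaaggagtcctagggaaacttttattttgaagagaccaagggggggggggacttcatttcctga
Fgfr2, chr7:130266809-130267058, - strand: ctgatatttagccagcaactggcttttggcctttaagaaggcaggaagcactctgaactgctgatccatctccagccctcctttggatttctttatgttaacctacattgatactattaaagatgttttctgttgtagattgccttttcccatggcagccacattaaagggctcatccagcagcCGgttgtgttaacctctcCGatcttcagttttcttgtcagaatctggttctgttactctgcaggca
Met, chr6:17463707-17463956, + strand: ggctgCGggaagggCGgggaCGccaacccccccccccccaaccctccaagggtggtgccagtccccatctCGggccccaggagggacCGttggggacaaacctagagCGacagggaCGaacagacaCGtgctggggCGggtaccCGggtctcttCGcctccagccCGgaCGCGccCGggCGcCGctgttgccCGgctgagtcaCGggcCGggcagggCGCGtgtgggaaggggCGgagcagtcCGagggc
The windows of Pdgfra and Fgfr2 held 4 and 2 CG dinucleotides, and that of Met held 24, against a median of 6 over 32851 windows of this length. A lower count than in Pdgfra was found in 37.8% of all windows, than in Fgfr2 in 18.8% and than in Met in 88.0%. The GC-box letters GGGCGG, on either strand, occurred 3 times before Met and not before Pdgfra or Fgfr2; 32.7% of all windows held them. TGACTCA, on either strand, occurred once before Met and in 4.5% of all windows. The windows of Egfr, Erbb2, Kit and Fgfr3 held 11 to 24 CG dinucleotides. These are counts of letters before 1 annotated start and not sites of binding.

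Between the lines, 5 of the 8 tested receptors differed in sparse cells (2 higher and 3 lower in KO), beside 48.8% of all genes (23.2% higher, 25.6% lower). In dense cells 6 of 8 differed (2 higher, 4 lower), beside 61.6% of all genes (31.9% higher, 29.7% lower). With density, 5 of 8 changed in the rescue line (4 higher and 1 lower when dense), beside 40% of all genes (19% higher, 21% lower). In the KO line 1 of 8 changed, upward, beside 10.9% of all genes (5.43% higher, 5.48% lower). That last background rests on single arrays: 1358 genes were called in all, and 601, 672, 881 and 514 without KO_sparse replicate 1, KO_sparse replicate 3, KO_dense replicate 1 and KO_dense replicate 2. The density response differed between the lines, by the interaction term, for 4 of 8 (1 more positive in KO, 3 more negative), beside 20.7% of all genes (11.3% and 9.46%). The shares of receptors called lie near those of all genes in the line comparisons. Median log2 differences over the 8 receptors were -0.17, -0.63, 0.57, 0.22 and 0.03 in that order, against 0.03, 0.08, -0.08, -0.00 and 0.04 over all genes. The comparisons share arrays, so their results are not independent.

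**Figure D1:**
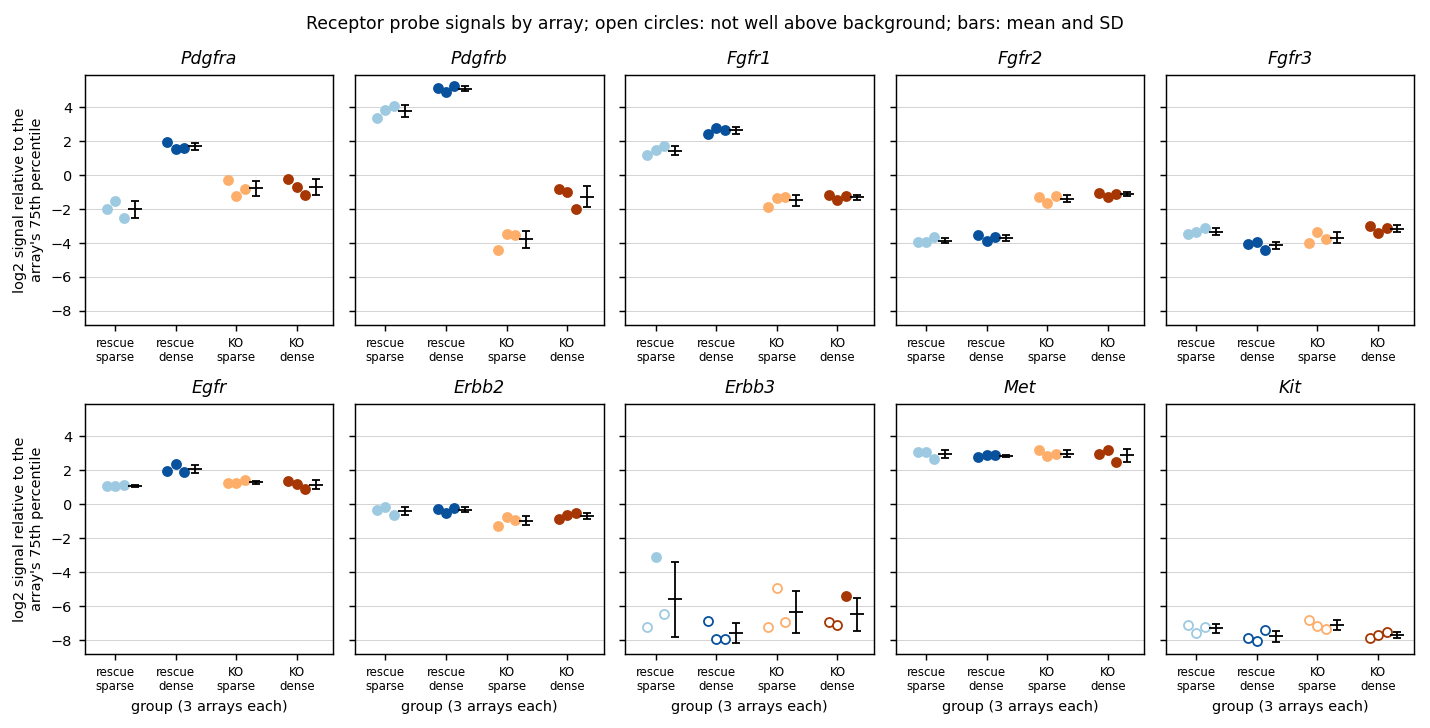
Log2 signal relative to the 75th percentile of the array (y axis) for the brightest probe of each of the 10 receptors, by group (x axis); each circle is 1 array, filled where well above background, and the bars give mean and SD (n = 3). Pdgfrb and Fgfr1 lie lower and Fgfr2 lies higher on all KO arrays than on all rescue arrays, Pdgfra is high in rescue_dense, and no Kit circle is filled.

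**Figure D2:**
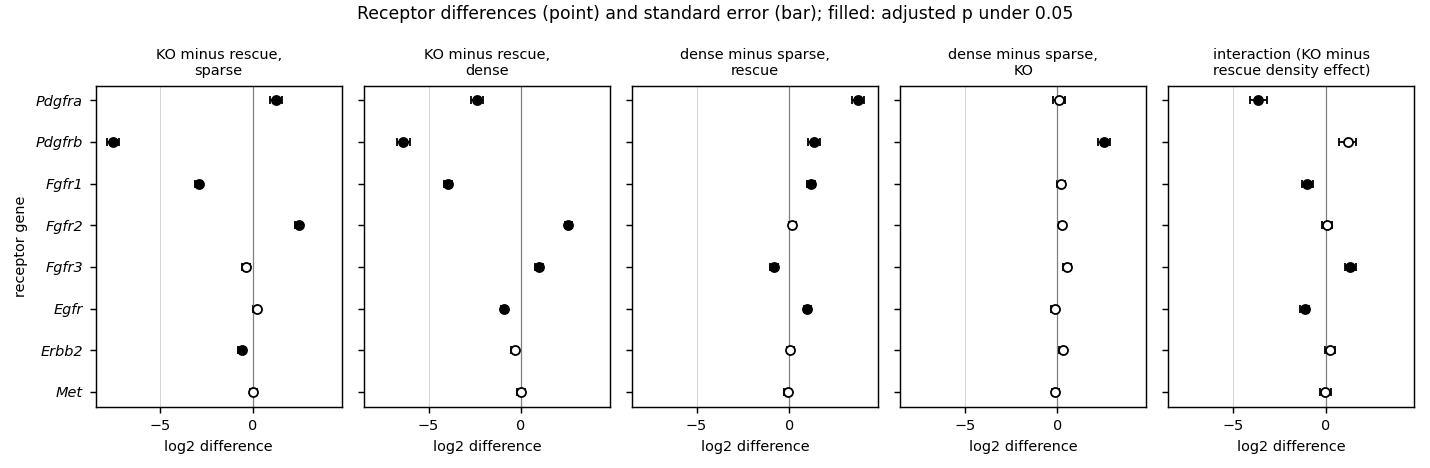
Log2 difference (x axis, point) and its standard error (bar) for the 8 tested receptors (y axis) in the 5 comparisons; filled points have a limma adjusted p below 0.05. The largest difference is that of Pdgfrb between the lines in sparse cells, -7.56, and Met has an open point in every panel.

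Pdgfrb, the receptor for PDGF-BB and PDGF-DD and a marker of mural and mesenchymal cells, showed the largest difference of the 10. Its signals were 3.36, 3.85 and 4.09 in rescue_sparse and 5.11, 4.93 and 5.25 in rescue_dense. In KO_sparse they were -4.38, -3.48 and -3.51, and in KO_dense -0.80, -1.01 and -1.99. All 12 values were well above background, and none of the 4 groups overlapped. The KO line was lower by a log2 difference of -7.56 ± 0.34 (SE) in sparse cells, 188-fold, and by -6.36 ± 0.34 in dense cells, 82.3-fold (limma adjusted p = 3.59e-09 and 1.31e-08). On the slide that held both lines (day 2) the differences were -7.33 and -5.94. Days 1 and 3 had a slide for each line, so there the slide and the line cannot be told apart.

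With density, Pdgfrb rose in both lines. The change was 1.33 ± 0.34 in the rescue line (limma adjusted p = 0.00821) and 2.52 ± 0.34 in the KO line, 5.74-fold (adjusted p = 0.00193), where it was the only receptor called. By day the KO change was 3.58, 2.47 and 1.52, upward on each slide. In the same order of days, the array's 75th percentile was 294, 688 and 460 units in KO_sparse and 1077, 1594 and 951 in KO_dense. The part of this difference in array brightness in the KO change was not tested. The interaction was 1.19 ± 0.48 and missed the threshold (adjusted p = 0.0985), but passed it without KO_dense replicate 3 (1.56, adjusted p = 0.0267). After normexp background correction the KO change was 1.16 and lost its call (adjusted p = 0.217). The gene has 1 probe on the array, so no second probe checks these values.

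Pdgfra, the receptor for PDGF-AA and PDGF-CC and a marker of fibroblasts, followed density in the rescue line. Signals were -2.01, -1.497 and -2.53 in rescue_sparse and 1.95, 1.57 and 1.59 in rescue_dense, a rise of 3.71 ± 0.32 or 13.1-fold (limma adjusted p = 9.00e-06). The KO line gave -0.30, -1.22 and -0.83 when sparse and -0.25, -0.67 and -1.17 when dense, 2 overlapping groups (0.09 ± 0.32, adjusted p = 0.888). KO arrays thus lay between the sparse and the dense rescue arrays. The interaction was -3.63 ± 0.45 (adjusted p = 3.84e-04) and stayed negative in 12 alternatives, with its call lost after spike-in scaling (-1.28, adjusted p = 0.0667) and in the deposited table as labelled (-0.67).

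In dense cells Pdgfra was lower in KO by -2.40 ± 0.32, or 5.27-fold (limma adjusted p = 4.07e-05; -2.24 on the shared slide). In sparse cells it was higher in KO by 1.23 ± 0.32 (adjusted p = 0.00726), a value that was 0.27 on the shared slide, 0.83 with slide as a block (adjusted p = 0.117) and -0.32 with scaling to spike-in probes. The dimmer of its 2 probes was well above background on all 3 arrays of rescue_dense only. It passed the filter through that group alone, so its differences that involve rescue_dense are no independent check of the brighter probe. Its fitted differences had the same sign as those of the brighter one in both line comparisons, in the rescue line and in the interaction (-3.56 ± 0.47). In the KO line it was called lower when dense (-1.52 ± 0.33, adjusted p = 0.0140 over all probes), where 0 of 3 arrays showed it well above background. The mean of both probes was -0.71 in that comparison (adjusted p = 0.0495).

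Among the FGF receptors, Fgfr1 was lower and Fgfr2 higher in KO. Fgfr1 signals were 1.17, 1.47 and 1.70 in rescue_sparse and 2.44, 2.80 and 2.67 in rescue_dense. They were -1.87, -1.32 and -1.28 in KO_sparse and -1.17, -1.46 and -1.25 in KO_dense. KO and rescue arrays did not overlap at either density. The difference was -2.94 ± 0.21 in sparse cells (7.66-fold; limma adjusted p = 2.61e-07) and -3.93 ± 0.21 in dense cells (15.3-fold; adjusted p = 1.48e-08), with -2.79 and -4.26 on the shared slide. All 3 Fgfr1 probes were called lower in KO at both densities.

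With density, Fgfr1 rose in the rescue line by 1.19 ± 0.21 (limma adjusted p = 9.31e-04). In the KO line its brightest probe gave 0.20 ± 0.21 (adjusted p = 0.591), while both dimmer probes fell, by 0.87 and by 1.91 on the log2 scale (adjusted p = 0.0260 and 0.0440 over all probes). The interaction of the brightest probe, -0.995 ± 0.30 (adjusted p = 0.0353), was 1.35 with spike-in scaling, and it missed the threshold without rescue_sparse replicate 1 or 2, rescue_dense replicate 2 or 3, KO_sparse replicate 2 or 3 or KO_dense replicate 2 or 3 (adjusted p 0.0594 to 0.0844). The dimmer probes gave -1.66 and -2.91 (adjusted p = 0.00457 and 0.0246).

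Fgfr2 gave -3.96, -3.95 and -3.65 in rescue_sparse and -3.54, -3.88 and -3.64 in rescue_dense. In KO_sparse its signals were -1.31, -1.62 and -1.20, and in KO_dense -1.06, -1.27 and -1.09. The lines were separate and the densities overlapped within each line. KO was higher by 2.47 ± 0.18 in sparse and 2.55 ± 0.18 in dense cells, 5.55-fold and 5.85-fold (limma adjusted p = 2.47e-07 and 1.46e-07), and by 2.33 and 2.61 on the shared slide. With spike-in scaling the sparse difference was 0.93 (adjusted p = 0.0629). All 3 probes were called higher in KO at both densities. The dimmest of them was not well above background in rescue and passed the filter through KO_sparse alone. Its calls are therefore no independent check of the brighter probes. The probes were not matched to the epithelial or mesenchymal splice form.

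Fgfr3 was dim in all groups, though well above background on all 12 arrays. Its signals were -3.48, -3.38 and -3.10 in rescue_sparse and -4.07, -3.96 and -4.40 in rescue_dense, a fall of 0.82 on the log2 scale (SE 0.21; limma adjusted p = 0.00929). KO_sparse gave -3.99, -3.33 and -3.73 and KO_dense -3.00, -3.38 and -3.09, which overlapped (0.53 ± 0.21, adjusted p = 0.135). KO was higher in dense cells by 0.98 ± 0.21 (adjusted p = 0.00162), and the interaction was 1.35 ± 0.30 (adjusted p = 0.00899). The rescue change and the interaction lost their calls when the kept probes of a gene were averaged (-0.53 and 0.76, adjusted p = 0.170 and 0.207). The other kept probe passed in none of the comparisons (0.92 ± 0.43 in dense cells, -0.24 ± 0.43 with density in rescue, interaction 0.18 ± 0.61). In sparse cells the difference was -0.36 ± 0.21 (adjusted p = 0.180), and it passed with median scaling (-0.66) and quantile normalization (-0.62). The other kept probe had the opposite sign in sparse cells (0.74 ± 0.43, adjusted p = 0.181 over all probes). On none of the 12 arrays was a further Fgfr3 probe well above background.

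Egfr, the receptor of EGF and its relatives, changed with density in the rescue line. Its signals were 1.07, 1.07 and 1.15 in rescue_sparse, 1.98, 2.35 and 1.89 in rescue_dense, 1.29, 1.23 and 1.41 in KO_sparse and 1.40, 1.17 and 0.88 in KO_dense. The 3 rescue_dense values lay above the other 9. The rescue rise was 0.98 ± 0.18, or 1.97-fold (limma adjusted p = 0.00128), and the KO change was -0.16 ± 0.18 (adjusted p = 0.623). The interaction was -1.13 ± 0.26 (adjusted p = 0.00969) and turned to 1.22 with spike-in scaling (adjusted p = 0.0735). It was called for 1 of 4 probes; the others gave -0.25, -0.64 and -1.02 (adjusted p = 0.563, 0.122 and 0.121 over all probes).

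Egfr was lower in dense KO cells by -0.92 ± 0.18 (limma adjusted p = 8.30e-04; -1.18 on the shared slide) and missed the threshold in sparse cells (0.21 ± 0.18, adjusted p = 0.371; -1.34 with spike-in scaling), although 1 dimmer probe was called higher there (0.91, adjusted p = 0.0266 over all probes). The dense difference rests on 1 of 4 probes: the others gave -0.02, -0.29 and -0.11, none called, and the mean over probes was -0.33 (adjusted p = 0.0932). In the rescue line, both probes assigned to 1 RefSeq transcript were called higher when dense (0.98 and 0.84, adjusted p = 0.00210 and 0.0483 over all probes), and both assigned to another were not (0.42 and 0.29, adjusted p = 0.113 and 0.268). The difference between the pairs of probes was not tested.

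Erbb2, which has no ligand of its own and signals as partner of other ERBB receptors, gave -0.34, -0.17 and -0.61 in rescue_sparse and -0.25, -0.49 and -0.23 in rescue_dense. In KO_sparse it gave -1.25, -0.76 and -0.90, and in KO_dense -0.85, -0.64 and -0.52. It was lower in sparse KO cells by -0.59 ± 0.19, or 1.51-fold (limma adjusted p = 0.0217). This call was lost with slide as a block (-0.49, adjusted p = 0.188) and without rescue_sparse replicate 1 or 2 or KO_sparse replicate 1 (adjusted p 0.0544 to 0.0942), and the second probe gave -0.01 ± 0.23. In dense cells the difference was -0.35 ± 0.19 (adjusted p = 0.133).

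Erbb3, a receptor with little kinase activity that pairs with Erbb2, had 4 probes. Each was well above background on at most 1 array of any group, so no direction was read from them. Kit, the stem cell factor receptor of mast cells, melanocytes and germ cells, had 1 probe, with values from -8.06 to -6.79, not well above background on any of the 12 arrays. These signals bound the level and do not show that the transcripts are absent.

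Met, the hepatocyte growth factor receptor, had nearly the same signal in every group: 3.09, 3.11 and 2.69 in rescue_sparse, 2.81, 2.89 and 2.91 in rescue_dense, 3.19, 2.83 and 2.95 in KO_sparse and 2.98, 3.18 and 2.48 in KO_dense. The line differences were 0.03 ± 0.21 and 0.01 ± 0.21 in sparse and dense cells, and the density changes -0.09 ± 0.21 in rescue and -0.11 ± 0.21 in KO (limma adjusted p from 0.756 to 0.968). With spike-in scaling, which moved the median of all genes by -1.55 in sparse cells and by 3.07 with density in KO, Met gave -1.52 and 2.96 in those comparisons and so followed the shift. A second Met probe fell with density in the rescue line by 0.84 on the log2 scale (adjusted p = 0.0231 over all probes) and gave -0.81 in KO (adjusted p = 0.0582).

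**Figure D3:**
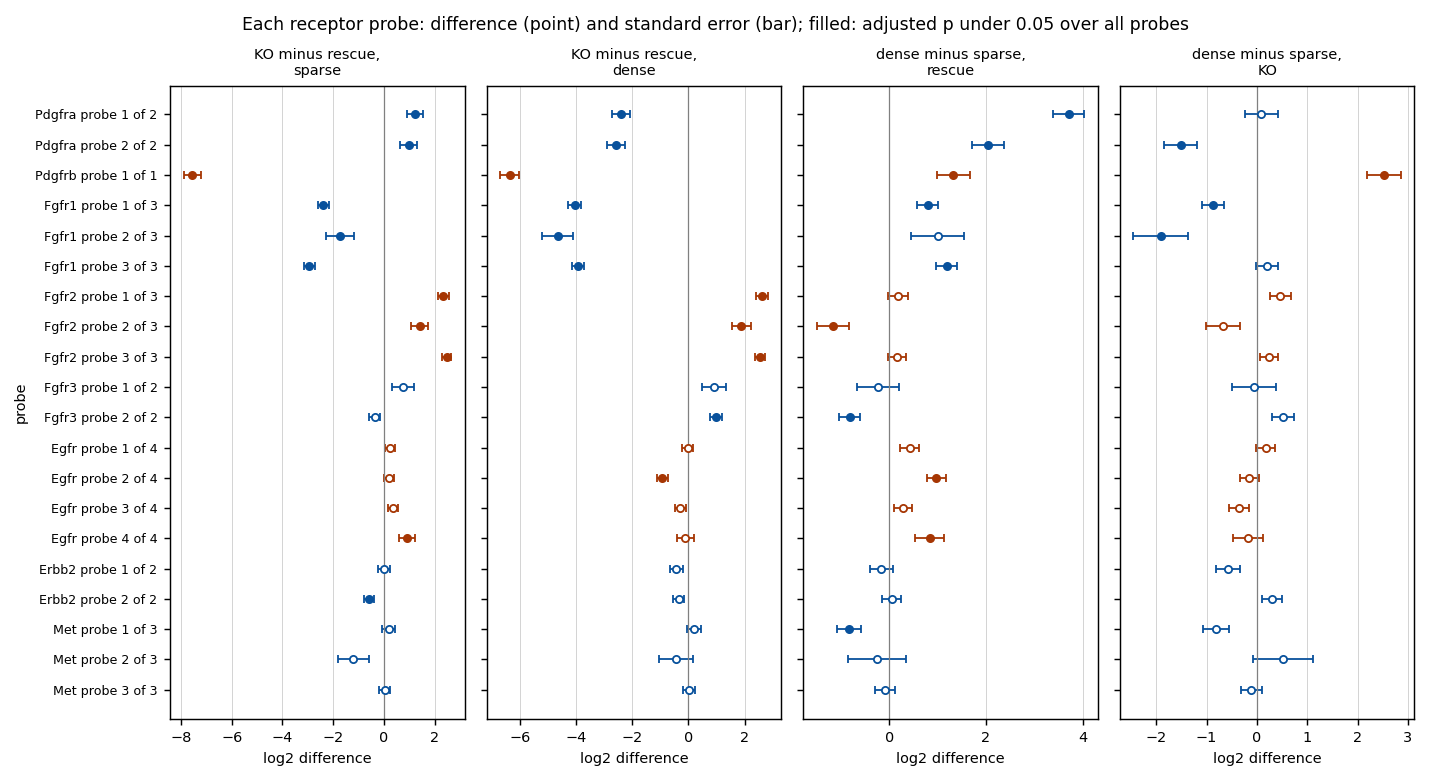
Log2 difference (x axis, point) and standard error (bar) for each of the 20 receptor probes in the test (y axis, coloured by receptor in turn) in 4 comparisons; filled points have a limma adjusted p below 0.05 over all probes. The 3 Fgfr1 probes lie below 0 and the 3 Fgfr2 probes above 0 in both line comparisons, whereas of 4 Egfr probes 1 is filled in the dense comparison. The dimmest Fgfr2 probe passed the filter through KO_sparse alone.

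Counted by probe, 11 of the 20 receptor probes in the test were called between the lines in sparse cells and 11 in dense cells, beside 47% and 57.6% of 25931 probes. With density 10 were called in rescue and 4 in KO, beside 35.2% and 12%, and 7 in the interaction, beside 17.7%. The rescue count includes the dimmest Fgfr2 probe (-1.16, limma adjusted p = 0.0193), which was not well above background on any rescue array. Probes of 1 receptor share their target and are not replicates.

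Markers of other cell types differed between the lines as well. Of 5 mesothelial markers, all 5 were well above background on every KO array and only Msln on every rescue array. At both densities 4 were called higher in KO and 1, Msln, lower (-1.31 ± 0.22 and -1.66 ± 0.22). Of all genes, 23.2% were higher and 25.6% lower in sparse KO cells, and 31.9% and 29.7% in dense ones. The same shares stand beside the counts of markers called between the lines below. Wt1, Upk3b and Lrrn4 were not well above background on any rescue array, whereas Wt1 was 4.43 to 4.83 on the KO arrays. The summed mesothelial signal was 6.22 to 6.39 in KO and 4.53 to 5.38 in rescue (log2, range over 6 arrays each), and that of 9 epithelial markers 6.24 to 7.08 and 0.57 to 2.67. Krt18 was 6.14 to 7.02 in KO and -3.59 to -1.40 in rescue. The keratins Krt8, Krt18 and Krt19 were well above background on all 12 arrays and Cldn4 on none. The list did not move 1 way. In sparse KO cells 2 of 6 tested members were higher and 1 lower, in dense ones 4 and 1. The higher ones were Krt18 and Esrp2, and in dense cells also Krt8 and Krt19. Esrp2 was higher by 3.75 ± 0.64 in sparse and 4.95 ± 0.64 in dense KO cells. It was well above background on every KO array, but on 2 of 3 rescue_sparse and 1 of 3 rescue_dense arrays, so these sizes are not exact. Cldn7 was at least 1.57-fold lower in sparse and Cdh1 at least 3.03-fold lower in dense KO cells, and Krt8 gave -0.07 ± 0.24 in sparse cells. The summed signal of 8 fibroblast markers was 8.36 to 8.59 in KO and 9.53 to 10.17 in rescue; Col1a1 and Vim were well above background on all 12 arrays, and Thy1 on 1 KO_dense array only. In sparse KO cells 4 of 7 tested fibroblast markers were lower and 2 higher (Dcn, 4.77 ± 0.26, and Fn1, 0.73 ± 0.18), in dense ones 6 and 0. Of 6 mural markers, 2 in KO and 4 in rescue groups were well above background on every array of a group (summed signal 6.70 to 8.22 and 6.06 to 7.73). Of 5 endothelial markers and of 6 blood and mast cell markers with a probe, 1 of each list was, in every group; summed signals were -1.39 to -0.09 in KO and -1.13 to 0.30 in rescue for the former, and -0.08 to 0.64 and -2.0 to -0.31 for the latter. Pecam1 and Ptprc, their defining markers, were below that mark on all 12 arrays. Of 4 melanocyte markers with a probe, 0 in KO_sparse and 2 in the other groups were (summed signal -4.18 to -3.41 in KO and -2.28 to -1.03 in rescue). The part of these markers in the line differences of the receptors was not tested.

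Markers moved with density in the rescue line too, where Pdgfra, Pdgfrb, Fgfr1 and Egfr rose. Of 7 tested fibroblast markers 4 rose and 0 fell, of 6 epithelial ones 0 and 2, of 5 mural ones 2 and 2, of 5 mesothelial ones 0 and 1. Of all genes, 19% rose and 21% fell. Dcn, a matrix proteoglycan, was 1.41, 1.54 and 0.75 in rescue_sparse and 5.59, 6.24 and 5.53 in rescue_dense (4.55 ± 0.26). In KO it gave 0.20 ± 0.26, with an interaction of -4.35 ± 0.37 (limma adjusted p = 4.53e-05). Lum rose at least 11.3-fold in rescue, and Fn1 by 1.504 ± 0.18, Notch3 by 2.74 ± 0.53 and Rgs5 by 2.34 ± 0.62, whereas Krt8 gave -1.67 ± 0.24 and Acta2 -1.37 ± 0.24. In the KO line 1 fibroblast marker rose and 1 fell, beside 5.43% and 5.48% of all genes. The part of these markers in the density changes of the receptors was not tested.

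Of 31 genes for ligands of these receptors, 23 could be tested. Between the lines 6 were higher and 7 lower in KO in sparse cells (median log2 difference -0.32, or 0 with genes below background set at their bound, against 0.03 over all genes), and 9 higher and 8 lower in dense cells (median 0.44, against 0.08). These counts of 13 and 17 of 23 stand beside 48.8% and 61.6% of all genes called. With density 2 rose and 7 fell in rescue (-0.15, or -0.50 with bounds, against -0.08), beside 19% and 21% of all genes. In KO 1 rose and 2 fell (-0.12, or -0.06 with bounds, against -0.00), beside 5.43% and 5.48% of all genes. The interaction was positive in 3 and negative in 0, beside 11.3% and 9.46% of all genes. The brightest probe of 1 of these 3, Tgfa, was not well above background in rescue_dense. Nrg2 had no probe, and Fgf12, Fgf13, Fgf16, Fgf20, Fgf22, Ereg and Nrg3 were not well above background on all 3 arrays of any group.

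Of 9 tested FGF ligands, 5 were higher and 2 lower in sparse KO cells, and 5 and 3 in dense ones. Of all genes, 23.2% were higher and 25.6% lower in sparse KO cells, and 31.9% and 29.7% in dense ones. The brightest probes of Fgf2, Fgf5 and Fgf9 passed the filter through KO groups alone, and those of Fgf1, Fgf7 and Fgf10 through rescue groups alone. Their calls between the lines therefore follow in part from the filter. Fgf5 was well above background only in KO: 2.96, 2.64 and 2.74 when sparse and 1.90, 1.96 and 2.14 when dense, at least 442-fold and 353-fold above rescue. These bounds set the KO mean against the dimmest signal that still counted as above background on the rescue arrays. Fgf9 was at least 52.1-fold and 126-fold higher in KO. Fgf18 was 3.31, 3.62 and 3.29 in KO_sparse against -2.22, -2.35 and -2.95 in rescue_sparse (5.91 ± 0.26; limma adjusted p = 3.20e-09), and 5.96 ± 0.26 higher in dense KO cells. Fgf2 was higher by 3.08 ± 0.35 in sparse cells and at least 11.1-fold in dense cells, and the metabolic hormone Fgf21 by 2.28 ± 0.38 and 4.77 ± 0.38.

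The opposite was measured for Fgf7 and Fgf10, ligands of the epithelial splice form of Fgfr2 that mesenchyme typically makes. Fgf7 was 3.24, 3.30 and 4.36 in rescue_sparse and -4.47, -4.88 and -5.46 in KO_sparse (-8.57 ± 0.67; limma adjusted p = 5.94e-07), with -8.51 ± 0.67 in dense cells; in each KO group 1 of 3 arrays was well above background. Fgf10, well above background on every rescue array and on no KO array, was at least 15.3-fold lower in sparse and 21.3-fold lower in dense KO cells. Thus in the KO line Fgfr2 was higher and both these ligands were lower. Fgf1 was at least 2.68-fold lower in dense KO cells, and Fgf11 passed in none of the comparisons.

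Of the 4 PDGF ligands, 0 were called higher in KO, beside 23.2% of all genes in sparse and 31.9% in dense cells. Pdgfc, a ligand of Pdgfra, was lower in sparse (-0.82 ± 0.18) and dense KO cells (-1.501 ± 0.18; limma adjusted p = 0.00266 and 1.74e-05). Pdgfa gave 4.01, 4.22 and 4.53 in rescue_sparse, 2.85, 3.01 and 2.85 in rescue_dense, 3.33, 3.34 and 3.17 in KO_sparse and 3.09, 3.24 and 3.15 in KO_dense. It fell with density in rescue by 1.35 on the log2 scale (SE 0.17), as Pdgfra rose, and gave -0.12 ± 0.17 in KO (interaction 1.23 ± 0.24, adjusted p = 0.00403). Pdgfb and Pdgfd passed in none of the comparisons.

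Hepatocyte growth factor and stem cell factor, the ligands of Met and Kit, were lower in KO. Kitl, which encodes stem cell factor, was 0.66, 0.70 and 0.72 in rescue_sparse against -2.93, -3.15 and -3.07 in KO_sparse (-3.74 ± 0.16; limma adjusted p = 2.77e-09), with -3.65 ± 0.16 in dense cells. Hgf was well above background on every rescue and on no KO array, and was at least 1.62-fold lower in sparse and 3.99-fold lower in dense KO cells; normexp background correction turned the sparse difference to 0.23 (adjusted p = 0.782).

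Of 8 tested EGF family ligands, 4 fell with density in the rescue line, 0 rose and 4 did not pass, beside 21% of all genes called lower and 19% higher. Hbegf was 2.51, 2.55 and 1.34 in rescue_sparse and -0.65, -0.78 and -0.85 in rescue_dense (-2.89 ± 0.31; limma adjusted p = 3.28e-05), and it also fell in KO, from 2.02, 1.76 and 1.80 to -0.15, 0.11 and 0.67 (-1.66 ± 0.31; adjusted p = 0.00750; 1.41 with spike-in scaling). Areg fell in rescue too, by a size that is not exact (-2.28 ± 0.39, 0 of 3 rescue_dense arrays well above background), as did Nrg1 (-1.92 ± 0.51). Tgfa was also called lower there, but its brightest probe was well above background on 0 of 3 rescue_dense arrays, so the fitted values (-1.40 in rescue, 1.64 between the lines in dense cells, interaction 1.502 ± 0.26, adjusted p = 0.00258) are not exact sizes. The interaction was -0.12 with normexp. Between the lines, Egf was higher in KO at both densities (1.55 ± 0.20 in each), Hbegf and Epgn were called higher in dense cells (0.97 and 0.99), as was Tgfa, and Nrg1, a ligand of Erbb3, was lower (-4.16 ± 0.51 and -3.18 ± 0.51). Nrg1 was well above background on 1 of 3 KO_sparse and 2 of 3 KO_dense arrays, so these sizes are not exact. Btc was called lower in dense KO cells (-2.60 ± 0.42), where its brightest probe was not well above background, and Nrg4 passed in none of the comparisons.

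Some ligand calls near the threshold rest on single arrays. Epgn in dense cells missed it without rescue_dense replicate 1 or 2 or any of the KO_dense replicates (limma adjusted p 0.0539 to 0.0982), and Hbegf in dense cells without KO_dense replicate 3 (0.74, adjusted p = 0.0754). The rescue density changes of Fgf1 (at least 2.32-fold up) and Fgf2 (at least 1.84-fold down), each with 1 group not well above background, missed it without rescue_sparse replicate 2 or any rescue_dense replicate, and that of Fgf2 also without rescue_sparse replicate 3 or KO_dense replicate 3 (adjusted p 0.0552 to 0.118 and 0.0509 to 0.112). The small rise of Kitl with density was not called without rescue_sparse replicate 1 or rescue_dense replicate 2 in rescue (0.54, adjusted p 0.0507 to 0.0683). In KO (0.63) it was not called without any 1 of the KO_sparse replicates or KO_dense replicate 2 or 3 (adjusted p 0.0501 to 0.125). The fall of Pdgfc with density in KO (-0.81) missed it without KO_sparse replicate 1 or 3 or KO_dense replicate 2 (adjusted p 0.0535 to 0.0735).

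**Figure D4:**
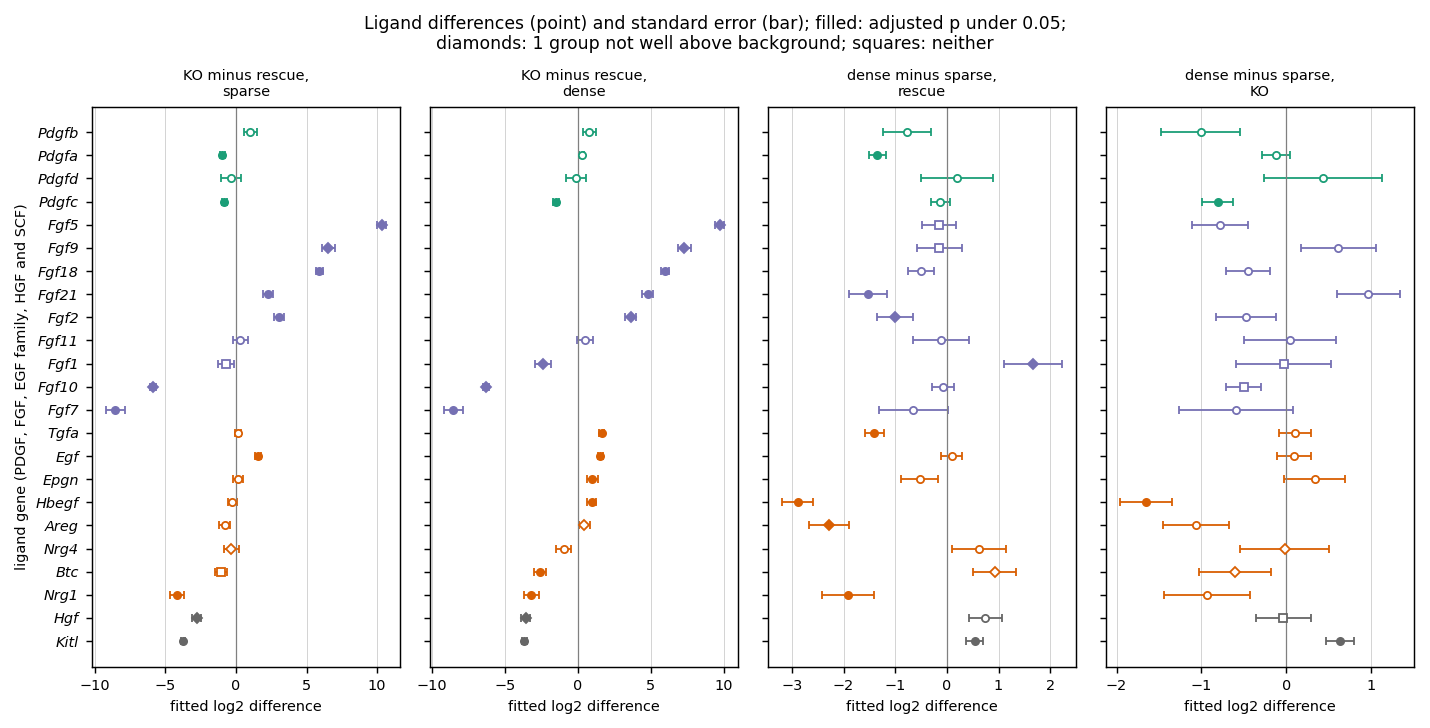
Fitted log2 difference (x axis, point) and standard error (bar) for the 23 tested ligand genes (y axis; green PDGF, violet FGF, orange EGF family, grey HGF and stem cell factor) in 4 comparisons; filled points have a limma adjusted p below 0.05, diamonds have 1 group and squares both groups without an array well above background. Fgf5, Fgf9, Fgf18, Fgf21 and Fgf2 lie to the right and Fgf10 and Fgf7 to the left in both line comparisons.

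Co-receptors, a list that holds proteoglycans and neuropilins beside other ligand-binding proteins, were called lower in KO more often than higher. In sparse cells 9 of 13 were lower and 2 higher (median -1.39), and in dense cells 8 and 2 (median -1.64). Of all genes, 25.6% were lower and 23.2% higher in sparse KO cells, and 29.7% and 31.9% in dense ones. Gpc1, a glypican, differed by -4.98 ± 0.45 and -3.65 ± 0.45 in KO (limma adjusted p = 2.24e-06 and 2.23e-05), whereas Gpc3, another glypican, was well above background only in KO and at least 99.0-fold and 189-fold higher. With density 1 rose and 3 fell in rescue (median -0.21, or -0.11 with bounds), beside 19% and 21% of all genes. In KO 1 rose and 2 fell (0.17), beside 5.43% and 5.48% of all genes. Cd44, a hyaluronan receptor that also presents ligands, fell in both lines (-1.80 ± 0.24 in rescue and -1.98 ± 0.24 in KO, the latter 1.09 with spike-in scaling). Nrp1 fell in rescue (-1.65 ± 0.22; interaction 1.45 ± 0.32, adjusted p = 0.00840).

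Of 12 tested genes for ligand processing and its inhibitors, 5 were higher and 5 lower in sparse KO cells, and 2 and 6 in dense ones, beside the same 48.8% and 61.6%. Adam12, a shedding protease, was at least 3.69-fold and 3.37-fold lower in KO. Of 43 adaptors and first signalling steps, 11 were higher and 16 lower in sparse KO cells and 10 and 19 in dense ones (median -0.24 and -0.32), beside 48.8% and 61.6% of all genes called in either direction. Stat5b, a transcription factor, was well above background only in rescue and at least 78.3-fold and 117-fold lower in KO, and Grb14, an adaptor that restrains insulin receptor signalling, was higher by 3.82 ± 0.31 and 3.63 ± 0.31 (limma adjusted p = 8.02e-07 and 9.49e-07). Pik3r3, a regulatory PI3K subunit, rose with density in rescue (1.83 ± 0.20), fell in KO (-0.79 ± 0.20, adjusted p = 0.0264) and was lower in dense KO cells (-4.06 ± 0.20), with an interaction of -2.63 ± 0.28 (adjusted p = 1.57e-04).

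Of 30 inhibitors and receptor turnover genes, 9 were higher and 9 lower in sparse KO cells (median 0.03), and 9 and 14 in dense ones (-0.13), again beside 48.8% and 61.6% of all genes called. Spry1 and Dusp6, feedback inhibitors of the Ras-MAPK pathway, were higher in dense KO cells by 3.37 ± 0.27 and 2.65 ± 0.18 (limma adjusted p = 5.85e-07 and 1.20e-07). Dusp6 read 0.83, 1.14 and 1.1 in rescue_dense against 3.56, 3.68 and 3.79 in KO_dense. Il17rd, an inhibitor of FGF signalling, was higher in sparse KO cells (2.13 ± 0.23) and rose with density in rescue (2.41 ± 0.23) and KO (1.002 ± 0.23; interaction -1.40 ± 0.33, adjusted p = 0.0114, and 0.94 with spike-in scaling). Ptprg, a receptor phosphatase, was at least 20.9-fold lower in sparse KO cells and lower by -5.79 ± 0.58 in dense ones.

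Among 18 other receptor tyrosine kinases that could be tested, 7 were higher and 6 lower in sparse KO cells, and 6 and 6 in dense ones (median 0.14 and 0.06), where 48.8% and 61.6% of all genes were called. Mst1r, the relative of Met that binds macrophage-stimulating protein, was 2.18, 2.05 and 1.67 in KO_sparse and not well above background in rescue_sparse, at least 252-fold higher, and 7.45 ± 0.31 higher in dense KO cells. Flt1, a receptor for vascular endothelial growth factor, was at least 216-fold lower in sparse KO cells and lower by -9.39 ± 0.61 in dense ones, where 1 of 3 arrays was well above background. Kdr, another such receptor, was well above background only in rescue_dense, at least 4.25-fold above rescue_sparse (interaction -2.99 ± 0.39, limma adjusted p = 4.79e-04). It passed the filter through that group alone, and its density change in KO could not be measured. The interaction is therefore not an exact size and follows in part from the filter.

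For each tested receptor the 2 genes nearest in pattern were found by the root mean square difference of log2 signals, each gene centred on its own mean over the 12 arrays. Near Pdgfrb were Ptn (0.56), which encodes the heparin-binding growth factor pleiotrophin, and Ctso (0.73). Near Pdgfra were C1qtnf5 (0.40) and Lctl (0.41), near Fgfr1 Ifi27 (0.22) and Csrp2 (0.27), and near Fgfr2 Ssh3 (0.21) and Lrrc1 (0.22). For Fgfr3 they were Xrcc3 and Asf1a (0.20 each), for Egfr Sppl3 (0.15) and Slc31a1 (0.16), for Erbb2 Fastk (0.12) and Dynlrb1 (0.15), and the nearest to Met was Yipf6 (0.14). Small values come more easily for receptors that vary little, so the figures are not comparable between receptors.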

How the data were processed

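Total RNA of 12 cultures was labelled with Cy3 and hybridised to Agilent 1-colour arrays, per the labels' protocols. The deposited scanner files hold linear spot intensity, background-subtracted by the authors with Feature Extraction 10.5.1.1 per the file headers. The deposited value table holds log2 values whose normalization is not given in the sources used here; its column medians were 8.38 to 8.39. Flagged spots (79 to 265 per array) were left out. Log2 processed intensity minus the array's 75th percentile (294 to 1594 units) was fitted with limma 3.58.1 in R 4.3.3, 1 mean per group, keeping probes that every array of 1 or more groups (3 of 3) showed well above background; the brightest kept probe stood for its gene. RefSeq symbols were those of GRCm38.p6. Adjustment ran over 12438 genes or 25931 probes, threshold 0.05; exact tests of 3 against 3 cannot go below 0.1. The labels tie replicate numbers to experimental days; 11 of 18 same-day pairs of arrays had deviations that correlated above 0.1 (-0.038 to 0.292). The fit reported has no block, and the day as a replicate block is an alternative. Arrays lay on 5 slides, and 1 held both lines. On simulated data, 52% of 2-fold and 87% of 4-fold changes (100 each among 12335 genes) were recovered in the sparse line comparison. No other genes were changed there, whereas 48.8% of all genes were called in the real comparison. The adjustment depends on that share, so these rates need not hold for the reported test. The receptors, gene lists and alternatives were chosen with earlier results of these data known. Ligands were named whatever their values; of each other list, the 3 called genes with the largest change and the called gene with the largest opposite change could be named. The files hold no mean signal, so normexp (offset 50) used median signals. The gene second nearest to Met in pattern is not reported here.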

Additional observations from a re-analysis of the deposited data

Results flagged for a closer look

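The following results are listed because the response to density differed between the lines by the interaction term of the limma fit (the log2 change with density in KO less that in rescue). Groups of 3 arrays were not examined for single outlying samples.

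Among the receptors, the interaction was -3.63 ± 0.45 for Pdgfra (adjusted p = 3.84e-04), -1.13 ± 0.26 for Egfr (adjusted p = 0.00969), -0.995 ± 0.30 for Fgfr1 (adjusted p = 0.0353) and 1.35 ± 0.30 for Fgfr3 (adjusted p = 0.00899). In the rescue line Pdgfra, Egfr and Fgfr1 rose and Fgfr3 fell with density, and 0 of the 4 passed in the KO line by their brightest probe; 2 dimmer Fgfr1 probes and 1 dimmer Pdgfra probe were called lower with density there. The Egfr interaction was called for 1 of 4 probes. Among ligands it was 1.23 ± 0.24 for Pdgfa (adjusted p = 0.00403), 2.49 ± 0.53 for Fgf21 (adjusted p = 0.00718) and 1.502 ± 0.26 for Tgfa (adjusted p = 0.00258), all of which were called lower with density in rescue; the brightest Tgfa probe was well above background on 0 of 3 rescue_dense arrays. Among the other pathway genes it was -2.99 ± 0.39 for Kdr (adjusted p = 4.79e-04), -2.63 ± 0.28 for Pik3r3 (adjusted p = 1.57e-04), -1.40 ± 0.33 for Il17rd (adjusted p = 0.0114) and 1.45 ± 0.32 for Nrp1 (adjusted p = 0.00840). Kdr was well above background only in rescue_dense, so its interaction is not an exact size and follows in part from the filter.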

How the results depend on the processing

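Line and slide cannot be told apart on days 1 and 3, and dim probes (Fgfr3, most EGF family ligands) limit what can be ranked. With the day as a replicate block (a paired fit), no call changed among 40 receptor results or among 75 called results of ligands and named pathway genes; ligands not called were not followed. Genes called were 6418, 7973, 5364, 1597 and 2950. Slide as a block left 3 receptors called in sparse cells. With normexp, genes called by limma were 3355, 5028, 2321, 48 and 567 (comparisons in the order of the report), and receptors called 0 with density in KO and 1 in the interaction; Hgf in sparse cells was 0.23 and the Tgfa interaction -0.12. In all, 7 of 40 receptor results and 27 of 75 ligand and pathway results lost their call with normexp. Median scaling left 2 receptors called with density in KO and 2 in the interaction; it shifted the median gene by -0.30 in sparse cells and by 0.25 with density in KO and in the interaction, and the share of calls that were higher from 47.6% to 30.6%, 49.8% to 80.9% and 54.4% to 70.9%. Quantile normalization called 2 receptors with density in KO and moved that share there to 63.1%. Normexp made it 33.3% there and shifted the median gene by 0.12 in sparse cells and -0.11 in the interaction. Spike-in scaling shifted the median gene by -1.55, 0.80, 0.72, 3.07 and 2.35 and the share higher to 6.15%, 78.1%, 90.6%, 100% and 99.5%; it called 9452 genes in sparse cells, 12378 with density in KO (8 receptors) and 10759 in the interaction. It turned Egfr to -1.34, Met to -1.52 and Pdgfra to -0.32 in sparse cells, Egfr to 2.91, Met to 2.96, Pdgfc to 2.26, Hbegf to 1.41 and Cd44 to 1.09 with density in KO, and the interactions of Egfr to 1.22, Fgfr1 to 1.35, Met to 2.33 and Il17rd to 0.94. With the mean of kept probes, 2 receptors were called with density in KO, and Pdgfra was -0.71 (adjusted p = 0.0495) and Kitl -0.60 there. The deposited table as labelled called 0, 0, 0, 1 and 0 genes with limma (83, 61, 903, 955 and 32 at an unadjusted p under 0.05), 0 receptors in each comparison, and turned Hbegf in dense cells to -0.054 and the Il17rd interaction to 0.12. Its days 1 and 2 alone, an alternative chosen after seeing the data, called 5102, 6839, 3652, 775 and 1402 genes, and the scanner values of those days 5175, 6850, 3743, 622 and 1214, with 1 receptor in the interaction. Leaving out 1 array gave 5326 to 6239, 7023 to 7832, 4243 to 5157, 514 to 1599 and 1967 to 2572 genes, and 4 to 5, 6, 5, 1 and 3 to 4 receptors. The KO density count was 601, 672, 881 and 514 without KO_sparse replicate 1 or 3 or KO_dense replicate 1 or 2. The cause of these changes was not tested.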
